A study of Bos taurus with 16 samples.

Results

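The corpus luteum was compared between later and earlier days of early pregnancy in cattle, by pooling 8 samples of days 20 and 23 after breeding (late) and setting them against 8 samples of days 14 and 17 (early). The samples were chosen by their labelled day alone, and together they were all 16 samples of the series, each measured with the same 204 miRNA probes. Per the series' design text, cows in estrus were mated naturally, inseminated artificially 12 hours later, and used only where pregnancy was found, with 4 animals per day and no non-pregnant group. No animal received a treatment in the labels, and the sources used here give neither breed nor age. MicroRNAs were counted with NanoString probes, and the values are the normalized counts that the authors deposited. The labels name 2 NanoString runs, and each run held 4 early and 4 late samples, 2 from each day, so run was kept as a term in every comparison.

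The corpus luteum forms on the ovary after ovulation and secretes the progesterone on which pregnancy depends. In cattle a gland without a pregnancy is broken down by prostaglandin from the uterus, and interferon tau from the embryo prevents this. MicroRNAs are short RNAs that lower the output of messenger RNAs they pair with, mainly through the seed near their 5′ end, and many are made in families with one seed or from clusters read as one transcript. The pooled comparison asks which of them stood at another level in the late period than in the early one. The periods were set by labelled day alone, so they do not stand for times before and after the action of interferon tau.

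Sample totals lay between 175197 and 536516 normalized counts. In run 1 the early totals ran from 175197 to 269804 and the late totals from 253542 to 331164; in run 2 they ran from 403912 to 523985 and from 373847 to 536516. The late minus early difference in log2 total was 0.20, split into 0.37 (run 1) and 0.032 (run 2; exact two-sided permutation within runs, p = 0.103; 4900 arrangements, smallest possible p = 0.000408), and without day 14 replicate 4 or day 20 replicate 3 it was 0.24 (exact p = 0.0441) and 0.25 (exact p = 0.0376). Of the probes, which carry human names, 155 had a cattle miRNA gene of the same name and 38 had none of that number. The median of the latter probes averaged 159.9 normalized counts per sample in run 1 and 57.5 in run 2, and it serves below as a mark for weak signal. No miRNA defines luteal cells, so the tissue label could be set only against miRNAs of other tissues: the epithelial miR-141-3p lay between 37.1 and 87.3 normalized counts in all samples and miR-128-3p, abundant in brain, between 67.2 and 304.

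No miRNA differed between late and early days at the adjusted threshold. By limma with run as a term, 0 of 204 probes (0%) had a Benjamini-Hochberg adjusted p under 0.05, and the smallest adjusted p was 0.243. At an unadjusted p under 0.05 there were 36 probes (17.6%), of which 23 (11.3%) had higher and 13 (6.37%) lower values late. Log2 differences ran from -0.85 to 0.71, with 106 (52%) above 0 and 98 below it. The 95% interval of a probe reached 0.44 log2 units to either side in the median, and for 181 probes it lay wholly within 1 log2 unit of no difference. Doublings or halvings thus lay outside the unadjusted interval for most probes, while differences closer to a probe's estimate than that reach did not. The following therefore describes the probes with the smallest p-values, none of which passed the test, with 15 taken in each direction.

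**Figure D1:**
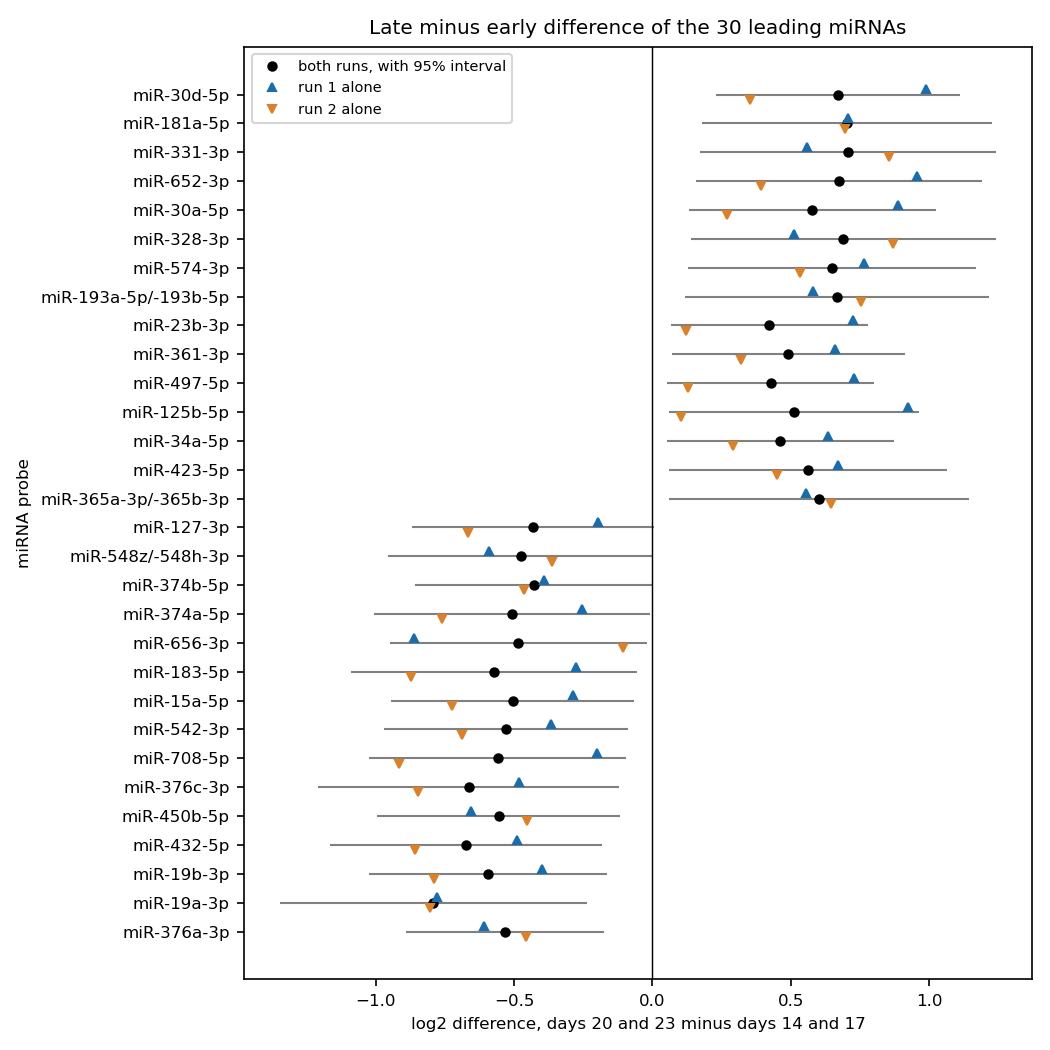
The 15 probes with the smallest p in each direction, with the log2 difference of late (days 20 and 23) minus early (days 14 and 17) on the x axis. Black points are the fit over both runs with its unadjusted 95% interval, blue triangles run 1 alone and orange triangles run 2 alone. No probe passed the adjusted threshold. Both runs lie on the same side of 0 for all 30, which their choice by p favours, and for 107 of all 204 probes.

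Among the probes with higher late values, miR-30d-5p had the smallest p. It belongs to the miR-30 family, whose 5p strands share one seed and are found in most tissues. Its normalized counts had a lowest, median and highest value of 95.6, 297 and 497 in the 8 early samples and of 199, 431 and 647 in the 8 late samples. The groups overlapped widely over all samples and narrowly within each run. In run 1 the early samples reached from 95.6 to 251 and the late ones from 199 to 377, and in run 2 from 342 to 497 and from 484 to 647. The log2 difference was 0.67 (SE 0.21, unadjusted p = 0.00445, adjusted p = 0.243), a fold of 1.59. miR-30a-5p of the same family had a difference of 0.58 (SE 0.22), with all 4 late samples of run 1 (221 to 289) above all 4 early ones (111 to 202) and overlap in run 2. Over the family as a whole, the median of its 7 probes was 0.094, with 4 higher and 3 lower, beside 0.0070 over all probes. miR-30b-5p had 0.094 and miR-30c-5p 0.12, and the family's median depended on the processing. It was -0.11 when samples were scaled to equal totals and 1.11 (5 higher, 2 lower) when the weak-signal median of each sample was subtracted as background, which sets weak probes to a floor.

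miR-181a-5p, known for tuning T-cell receptor signalling in the mouse, was the most abundant miRNA among the first 5. Its early samples had a lowest, median and highest value of 3077, 6049 and 13129.7 normalized counts and its late samples 5037, 10004 and 25404. Both runs gave nearly the same difference, 0.71 and 0.70, and 0.70 together (SE 0.25, adjusted p = 0.243), although early and late samples overlapped in each. Taken by day, the early means were 6214 ± 3232 (day 14; SD, n = 4) and 7935 ± 3470.2 (day 17), and the late means 8828 ± 3596 (day 20) and 14854 ± 7702 (day 23). Day 23 had the highest mean, and these SDs take in both runs. A limma F test of whether the days within a period differed, with run held, gave an unadjusted p = 0.0683 (adjusted p = 0.990). Of the same family, miR-181c-5p had a late minus early difference of 0.52 (SE 0.26), and the joint miR-181b-5p/miR-181d-5p probe 0.14 (SE 0.21).

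miR-331-3p, miR-652-3p and miR-328-3p stood together near the top of the comparison. miR-331-3p had a lowest, median and highest value of 380.1, 585 and 1056 early and 529.9, 852 and 2383 late, and a difference of 0.71 (SE 0.26), the highest of all probes. miR-652-3p had 0.67 (SE 0.25), and in run 1 its late samples (198 to 358) lay above its early ones (99.0 to 188), while in run 2 the 2 samples of day 14 had the lowest and the next to highest of the 8 values. miR-328-3p had 0.69 (SE 0.27) at low counts, 23.2 to 65.0 early and 19.2 to 178 late. These 3, with miR-197-3p at 0.28 (SE 0.30), make up a list that was put together from earlier results of these data, so its median of 0.68 is a description of that choice.

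Several higher probes came from shared precursors. miR-193b and miR-365 lie side by side in mammalian genomes and act in brown fat differentiation in the mouse. The joint miR-193a-5p/miR-193b-5p probe had a lowest, median and highest value of 147, 336 and 949 early and 273, 648 and 1903 late, a difference of 0.67 (SE 0.27). The joint miR-365a-3p/miR-365b-3p probe had 0.60 (SE 0.26), and miR-193a-3p, from the other strand of a miR-193a hairpin, 0.13 (SE 0.20) at 16.1 to 49.4 normalized counts, near the bottom of the measured range. Both strands of miR-574 and miR-423 lay on the higher side: miR-574-3p had 0.65 (SE 0.25), miR-574-5p 0.58 (SE 0.26), miR-423-5p 0.56 (SE 0.24) and miR-423-3p 0.46 (SE 0.23). miR-574-3p went from a median of 827 early (lowest 337, highest 1574) to 1118 late (lowest 647, highest 2794), with overlap in each run. These medians, 0.60 for the miR-365 and miR-193 probes and 0.57 for miR-423 and miR-574, stayed above 0 under every scaling tried, though these lists too were put together from earlier results.

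**Figure D2:**
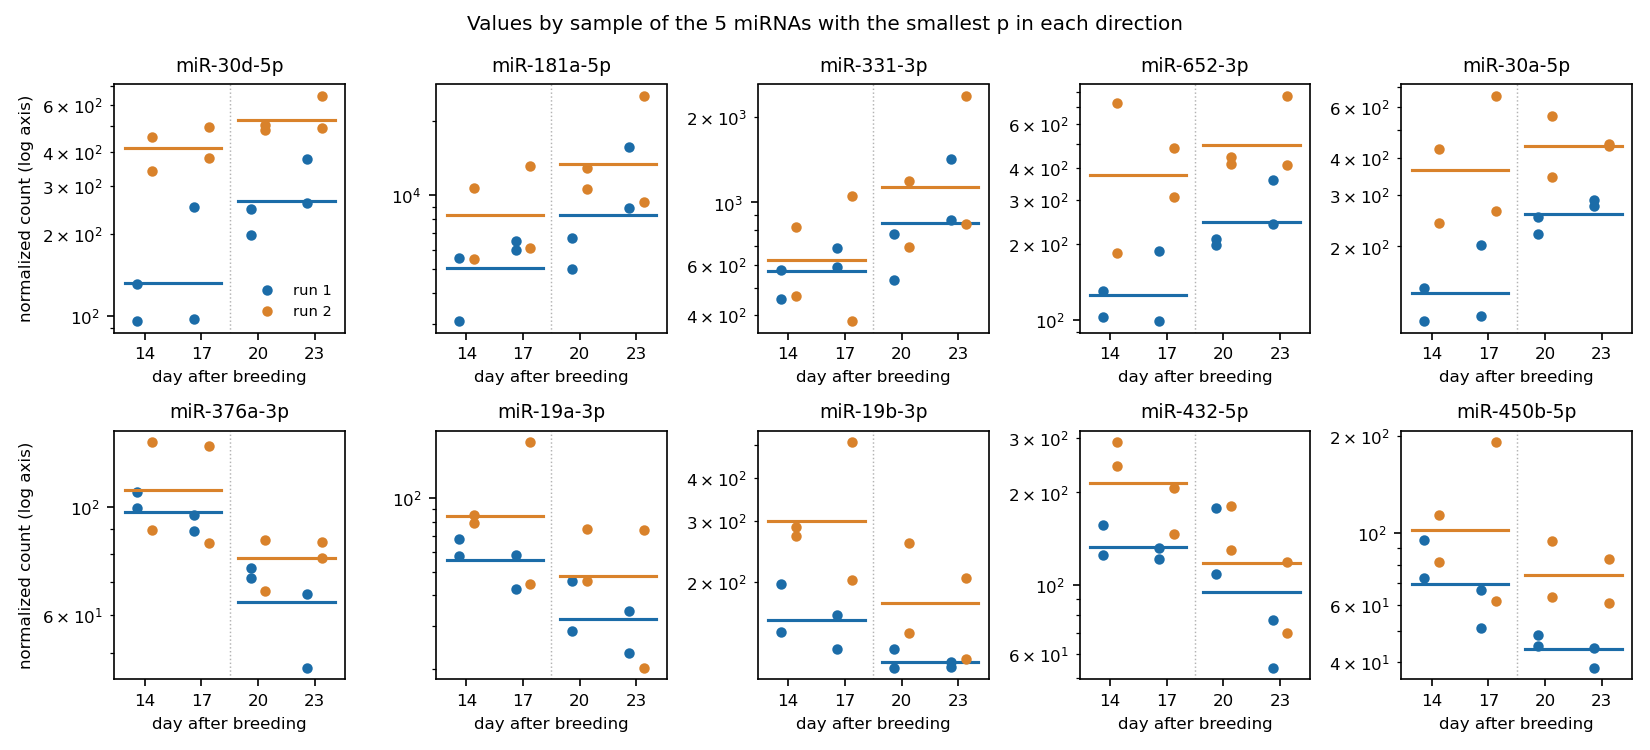
Normalized counts (log axis) in each of the 16 samples by day after breeding, for the 5 probes with the smallest p in each direction, with run 1 in blue and run 2 in orange. Horizontal lines are the back-transformed log2 means of the 4 samples of a run in each period; miR-30d-5p and miR-652-3p lie lower in run 1, while for miR-376a-3p the runs lie close together.

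For the remaining higher probes the difference was larger in run 1 than in run 2. miR-125b-5p, which lowers p53 in human cells and zebrafish, had a lowest, median and highest value of 6051, 18203 and 27073 early and 14726, 22911 and 26721 late. Its difference of 0.51 (SE 0.22) was 0.92 in run 1 and 0.10 in run 2. miR-497-5p, which has the seed of miR-15 and miR-16, had 0.73 and 0.13, and miR-23b-3p, which shares a transcript with miR-27b and acts in blood vessel growth in the mouse, 0.72 and 0.12. For miR-23b-3p, miR-497-5p and miR-361-3p the late samples of run 1 all exceeded the early ones, and in run 2 they overlapped. The miR-361-3p values of run 1 were 70.45 to 105.25 early and 128.78 to 160.46 late, beside a weak-signal mark of 159.9 in that run. A complete separation in run 1 was seen for 13 of 204 probes (6.37%), in run 2 for 2 (0.98%), and in both runs for 0. miR-34a-5p, a p53 target in human and mouse, had 0.46 (SE 0.20), from 0.63 and 0.29 in the 2 runs.

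The let-7 family, which in mammals is held down by LIN28 in immature cells, leads the luteal profile. let-7a-5p had a lowest, median and highest value of 35548, 67574 and 120106 normalized counts early and 52920.3, 75779.8 and 132328 late, and a difference of 0.28 (SE 0.16, adjusted p = 0.350). let-7b-5p had 0.36 (SE 0.18), let-7d-5p 0.44 (SE 0.20) and let-7c-5p 0.27 (SE 0.17). Of 9 probes of the family with miR-98, 7 lay above 0 and 2 below, with a median of 0.27 that was 0.40 in run 1 and 0.069 in run 2. let-7i-5p lay below 0 at -0.11 (SE 0.16). With samples scaled to equal totals the family's median was 0.066, and with quantile normalization it was 0.

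Lower late values were most regular in the imprinted DLK1-DIO3 region, where a long run of miRNA genes is read from the maternal chromosome. Of 18 probes, 17 lay below 0, with a median of -0.32 (-0.21 in run 1, -0.41 in run 2), against 0.0070 over all probes, and 4 had an unadjusted p under 0.05, beside 13 of all 204 (6.37%) on that side. Neighbouring probes share a transcript and are not independent of each other. miR-376a-3p had the smallest p of all lower probes: its lowest, median and highest values were 84.4, 97.8 and 136 early and 46.7, 73.1 and 85.5 late. Only 2 late samples, both in run 2, exceeded the lowest early one, also in run 2, and in run 1 the groups were apart (89.4 to 107 early, 46.7 to 74.9 late). The log2 difference was -0.53 (SE 0.17, unadjusted p = 0.00532, adjusted p = 0.243), with -0.61 in run 1 and -0.46 in run 2. All its values of run 1 lay below the weak-signal mark of that run, and all of run 2 above theirs.

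Other members of the region had like differences with wider spread. miR-432-5p had a lowest, median and highest value of 122, 151 and 291 early and 54.0, 114 and 180.2 late, and a difference of -0.67 (SE 0.24). Day 20 reached up to 180.2, within the early range, and the day 23 samples held the 3 lowest late values. With day 20 left out, so that day 23 alone stood for late, miR-432-5p was 1.13 log2 units lower (adjusted p = 0.0429). It was the 1 probe called, in 1 of 37 alternatives whose number was not adjusted for. In run 1 its early values (122 to 157) and its day 23 values (54.0 and 76.8) lay below the weak-signal mark of that run (159.9). miR-376c-3p had -0.66 (SE 0.26), miR-656-3p -0.48 (SE 0.22) at 23.4 to 84.9 normalized counts, and miR-127-3p, encoded opposite the placental gene RTL1, -0.43 (SE 0.21). The abundant miR-379-5p had -0.32 (SE 0.23) and miR-382-5p -0.21 (SE 0.21). The member with a higher value was miR-342-3p, which lies apart from the others on the same chromosome, at 0.34 (SE 0.21). The median of the list stayed below 0 under every scaling tried, while its count was 13 lower and 4 higher with background subtracted.

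Outside the imprinted region, the smallest p-values on the lower side were those of miR-19a-3p and miR-19b-3p, which share a seed and are made from the miR-17 to miR-92 transcript. miR-19a-3p had a lowest, median and highest value of 42.5, 63 and 169 early and 20.3, 40.2 and 74.7 late. Its difference was -0.79 (SE 0.27), a fold of 1.73, and was alike in both runs (-0.78 and -0.80). All its values of run 1 (23.4 to 67.7) lay below the weak-signal mark of that run, and some of run 2 (lowest 20.3) below theirs. miR-19b-3p went from a median of 199 (lowest 127, highest 509) to 123 (lowest 112, highest 259), a difference of -0.59 (SE 0.21). The same transcript holds miR-17, miR-20a and miR-92a, whose differences were smaller or of the other sign: the joint miR-20a-5p/miR-20b-5p probe had -0.15 (SE 0.16), the joint miR-106a-5p/miR-17-5p probe -0.20 (SE 0.16) and miR-92a-3p 0.43 (SE 0.26). Whether the miR-19 differences are larger than those of their neighbours was not tested. Over the 9 probes of these clusters, 6 lay below 0 and 3 above, with miR-93-5p at -0.14 and miR-25-3p at 0.14.

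miR-15a-5p, which lowers BCL2 in human cells, went from a median of 912 normalized counts early (lowest 554, highest 1734) to 612 late (lowest 483, highest 1535). The difference was -0.51 (SE 0.21). Probes with the same seed lay on both sides of 0: miR-15b-5p had 0.28 (SE 0.20), miR-16-5p -0.22 (SE 0.18) and miR-497-5p 0.43 (SE 0.18). In the wider list named for that seed, which also holds miR-107 and miR-503-5p, 4 of 8 probes lay above 0 and 4 below.

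The X-linked cluster that carries miR-424, miR-503, miR-542 and miR-450 had 5 of 6 probes below 0 and a median of -0.33. miR-450b-5p had a lowest, median and highest value of 51.2, 77.2 and 191 early and 38.5, 54.9 and 94.9 late, with a difference of -0.56 (SE 0.21) and no overlap in run 1. All its values of run 1 (38.5 to 95.6) lay below the weak-signal mark of that run (159.9). miR-542-3p had -0.53 (SE 0.21). The more abundant members had smaller differences relative to their error: miR-503-5p -0.33 (SE 0.29), miR-450a-5p -0.33 (SE 0.22) and miR-424-5p -0.31 (SE 0.27), the last with 0.21 in run 1 and -0.84 in run 2.

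The 2 strands of the miR-542 hairpin stood on opposite sides of 0. This comparison of strands was chosen after the values were seen and carries no test. miR-542-5p had a difference of 0.53 (SE 0.24) and miR-542-3p of -0.53, so the log2 ratio of 5p to 3p was 1.06 higher late (1.03 and 1.09 in the 2 runs). Within run 1 the ratio ran from 0.28 to 1.95 early and from 1.80 to 2.62 late, and in run 2 from -1.47 to 1.04 and from -0.42 to 0.90. The periods overlapped in each run through 1 early sample of day 17. The strands also differed by run: miR-542-3p was 1.30 log2 units higher in run 2 and miR-542-5p had -0.53, the direction of probes without a cattle gene, whose median run difference was -0.86 (same-name probes 0.79). The part of weak signal in the miR-542-5p values was not tested.

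Both strands were measured for 13 hairpins, and in 7 of them the strands had differences of the same sign. After miR-542 the widest gap was that of miR-30a, where the 5p strand had 0.58 and the 3p strand -0.12. The ratio of 5p to 3p for miR-30a ran from 1.07 to 1.92 early and 2.06 to 2.47 late in run 1. In run 2 it ran from 1.34 to 2.28 early and from 2.20 to 2.38 late, with 1 early sample inside the late range. The late minus early shift in this ratio was 0.097 for miR-423 and -0.073 for miR-574.

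**Figure D3:**
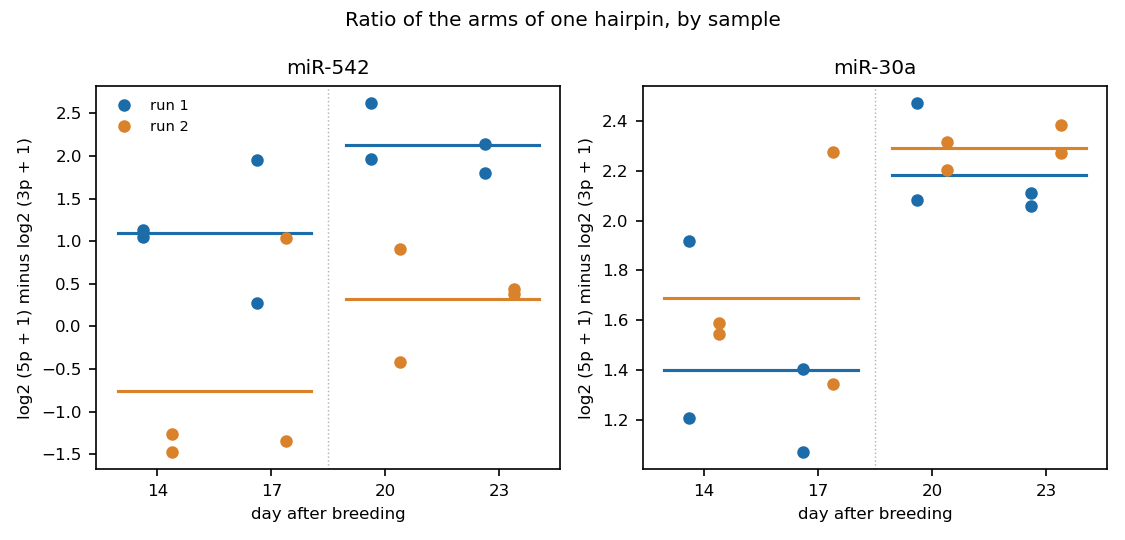
Difference of the log2 values of the 5p and 3p strands of miR-542 (left) and miR-30a (right) in each sample by day after breeding, with run 1 in blue, run 2 in orange and lines for the mean of 4 samples per run and period. For miR-542 the run 1 and run 2 samples mostly lie at different levels, and the mean over both is 1.06 higher late; for miR-30a the runs lie together.

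Further lower probes were miR-708-5p at -0.56 (SE 0.22), miR-183-5p, which with miR-96 and miR-182 lowers FOXO1 in bovine granulosa cells, at -0.57 (SE 0.25), and the X-linked miR-374a-5p and miR-374b-5p at -0.51 (SE 0.24) and -0.43 (SE 0.21). miR-708-5p had -0.20 in run 1 and -0.92 in run 2, where 1 early sample reached 188 normalized counts. The joint miR-548z/miR-548h-3p probe, of a primate-specific family, had -0.48 (SE 0.23). Of the 15 leading lower probes, 10 averaged below the weak-signal mark in run 1 and 2 in run 2, against 2 and 0 of the 15 leading higher probes. Over all same-name probes these numbers were 69 and 21 of 155, and how far weak signal shaped the lower differences was not tested.

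The direction of the cell type markers depended on the run or the scaling. In bulk tissue, fewer cells of a type and less RNA per cell cannot be told apart. Endothelial and angiogenic miRNAs had 5 of 10 probes above 0 and a median of 0.12 (-0.077 with equal totals); their summed level was 26348 ± 13089.5 normalized counts early (SD, n = 8) and 23994 ± 10555 late, most of it miR-126-3p, the endothelial miRNA of the EGFL7 gene, at -0.34 (SE 0.21). Smooth muscle, pericyte and fibroblast miRNAs had 4 of 8 above 0, a median of 0.012 and sums of 19103 ± 8364 and 18459 ± 3952, with the joint miR-199a-3p/miR-199b-3p probe at -0.020 (SE 0.24). Above 0 were 7 of these 8 in run 1, 2 in run 2 and 1 with equal totals, with medians of 0.21, -0.27 and -0.19. Red cell, platelet and myeloid miRNAs had 3 of 4 below 0 and a median of -0.35, split into 0.28 (run 1, 4 higher) and -0.90 (run 2, 4 lower). With background subtracted the blood list turned to 3 of 4 above 0 and a median of 0.30. Their sums ran from 615 to 1449 early and 808 to 1495 late in run 1, and from 2095 to 4968 and 1161 to 2756 in run 2. No marker was at 0 in any sample, but neither was any other probe, the lowest value of all being 12.0 normalized counts. The lack of zeros therefore does not show that a marker was present. Leukocyte and inflammatory miRNAs had 4 of 7 below 0 and a median of -0.24 (0.094 in run 1), with miR-21-5p at -0.24 (SE 0.23). Of the gonadotropin-responsive and steroidogenic miRNAs, 6 of 8 lay above 0, with a median of 0.089, and miR-24-3p had 0.094 (SE 0.16). That list had 2 above 0 and a median of -0.11 with equal totals, 3 and -0.069 with background subtracted, and 4 and -0.0040 in run 2.

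**Figure D4:**
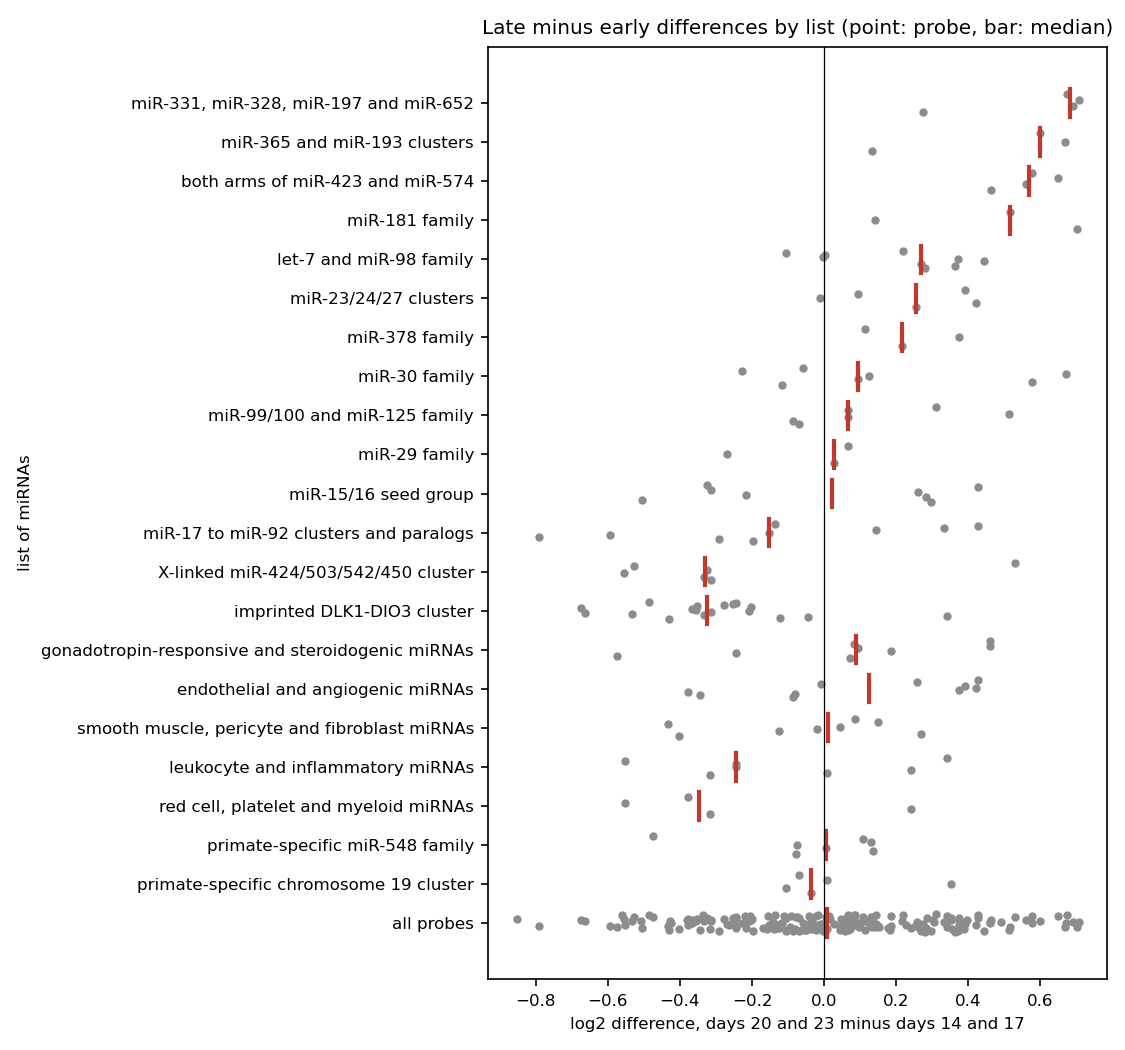
Late minus early log2 difference of every probe (grey points) in each list of miRNAs, with the list's median as a red bar; the bottom line holds all 204 probes. The lists were chosen with earlier results of these data known, and lists share some probes; with the deposited values the DLK1-DIO3 probes lie below 0 except for 1, while most other lists spread over both sides.

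The miR-99/100 and miR-125 family had 4 of 6 probes above 0 with a median of 0.065, among them miR-125a-5p at 0.065 (SE 0.19) and miR-99a-5p at 0.066 (SE 0.24). All 6 lay above 0 in run 1 (median 0.44), against 1 in run 2 (-0.17) and 2 with equal totals (-0.14). The miR-23, miR-24 and miR-27 clusters had 4 of 5 above 0 with a median of 0.26, and miR-23a-3p had 0.26 (SE 0.18) and miR-27b-3p 0.39 (SE 0.18). The median of these clusters was 0.50 in run 1, 0.028 in run 2 (3 above 0) and 0.053 with equal totals (3 above 0). Medians were 0.028 for 3 miR-29 probes, 0.22 for 3 miR-378 probes, 0.0047 for 7 miR-548 probes and -0.036 for 5 probes of the primate chromosome 19 cluster. None of these 4 kept its sign: miR-29 had -0.17 with equal totals and -0.22 with background subtracted, miR-378 0.019 and -0.15, and miR-548 -0.20 and -0.010. The chromosome 19 list had -0.28 in run 1 and 0.21 in run 2. Of the 10 most abundant probes, the joint miR-4454/miR-7975 probe, without a cattle gene of those numbers, had 0.30 (SE 0.33), which was 0.046 without day 17 replicate 3 and 0.48 without day 23 replicate 4.

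The pooled groups were next taken apart by day. For all 30 leading probes day 20 and day 23 both lay on the pooled side of the early mean, which their choice favours, and day 23 lay further out in 25 of them. Over all probes, day 23 lay further from the early mean than day 20 in 130 of 204. miR-432-5p had -0.21 on day 20 and -1.13 on day 23 relative to the early mean, and the joint miR-365a-3p/miR-365b-3p probe 0.16 and 1.04. By contrast miR-125b-5p had 0.52 on day 20 and 0.51 on day 23, and miR-376a-3p -0.46 and -0.60. On day 17 miR-125b-5p was already 0.62 log2 units above day 14, and its late mean was 0.20 above day 17. A limma F test of whether the days within a period differed called 0 probes (with 5, or 2.45%, at an unadjusted p under 0.05, and a smallest adjusted p = 0.891), with miR-432-5p first (unadjusted p = 0.00646). Without day 23, 2 probes had an unadjusted p under 0.05, and without day 14, 9, against 36 with all days. Without day 17 there were 34 and without day 20 there were 43.

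The runs gave unlike pictures of the pooled comparison. Over the 204 probes the late minus early differences of run 1 and run 2, which share no sample, had a Pearson r of 0.133, and over the same-name probes of 0.384. In run 1 the median difference was 0.15 for same-name probes and -0.33 for probes without a cattle gene, and in run 2 it was -0.13 and 0.27. Of the 38 probes without a cattle gene, 27 lay below 0 in run 1 and above 0 in run 2. The sample medians of those probes went with this: in run 1 they ran from 124 to 258 normalized counts early and from 129.6 to 149.8 late, and in run 2 from 40.4 to 68.2 and from 49.2 to 88.8. Pooled, their log2 difference was 0.014 (exact permutation within runs, p = 0.941). A limma test of whether the late minus early difference itself differed between runs called 0 probes, with 18 (8.82%) at an unadjusted p under 0.05 and a smallest adjusted p of 0.477.

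**Figure D5:**
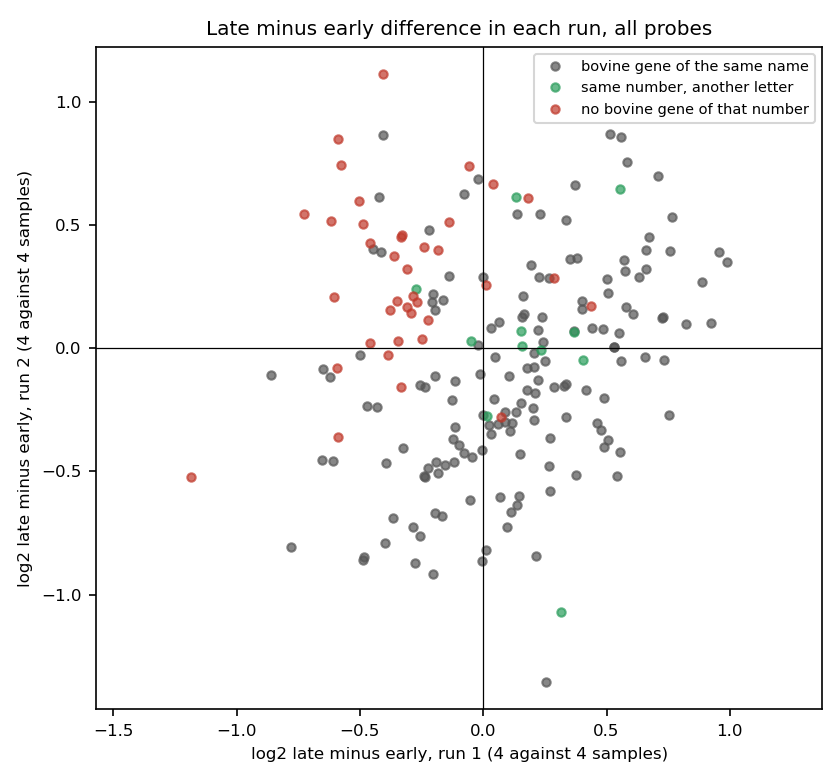
Late minus early log2 difference of each of the 204 probes in run 1 (x axis, 4 against 4 samples) and run 2 (y axis, 4 against 4 samples), coloured by whether a cattle miRNA gene carries the probe's name or number. Most probes without such a gene (red) lie at the upper left, below 0 in run 1 and above 0 in run 2. Same-name probes (grey) spread widely (Pearson r of 0.384), with 50 of 155 above 0 in run 1 and below 0 in run 2.

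The direction of weaker differences depended on the scaling. With samples scaled to equal totals the median difference of all probes was -0.20 in place of 0.0070, and the probes at an unadjusted p under 0.05 were split into 3 higher and 40 lower, against 23 and 13 with the deposited values. The 30 leading probes kept their sides: under equal totals the 15 higher ones ran from 0.22 to 0.51 and the 15 lower ones from -0.99 to -0.63.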

How the data were processed

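MicroRNAs were measured by NanoString in 16 corpus luteum samples. Per the labels' protocols, total RNA with miRNA was isolated with a commercial kit and its quality assessed. The deposited table holds a signal, called normalized counts in its title, for 204 probes; for its software, probe panel, background correction and normalization the labels give nothing. Low values lay on steps of 0.665 to 2.91 normalized counts with an offset, so the original reads could not be rebuilt; limma on logs took the place of a count test, and depth in counts is unknown. All 16 columns were matched by name to a sample.

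Values were taken as log2(normalized count + 1). The filter on low values (20 or more in 4 or more samples) removed none of the 204 probes. limma 3.58.1 in R 4.3.3 (lmFit, eBayes with a variance trend, two-sided) fitted period and run, leaving 13 residual degrees of freedom. Benjamini-Hochberg adjustment was over 204 probes, with a threshold of 0.05. The fit was checked on 20 simulated sets with 60 changed probes each and noise independent between probes. It recovered 37% of changes of 0.5 log2 units and 96.2% of changes of 1 log2 unit. Day as a factor and a period by run term gave the other limma tests. Log2 totals and medians were compared by exact permutation within runs, for 3 measures without adjustment. Probe names were matched to the RefSeq table of assembly ARS-UCD2.0 (1032 miRNA genes). Named probes were the 15 with the smallest p in each direction, the 10 most abundant, and the 3 most abundant of each list that held a leading probe; the comparison, the lists and this rule were chosen with earlier results of these data known. Alternatives covered the run term, scaling, background, filters, weights, days and each sample left out. Whether replicate numbers pair samples beyond the run was not tested. With day and run removed, same-numbered samples of different days correlated across probes from -0.602 to 0.572 (median -0.0765). Differently numbered samples of the same run and different days correlated from -0.635 to 0.514 (median -0.258). The root mean square difference between samples sharing day and run was 0.475 to 0.871 log2 units, so none were duplicates.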

Additional observations from a re-analysis of the deposited data

Results flagged for a closer look

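Samples far from the rest of their period were looked for by Dixon's ratio (the gap to the nearest sample over the range of the 8 samples, after centring each run), in 128 groups; chance alone passes about 1 group in 20, and 7 passed the 95% critical value. In the late group, day 23 replicate 2 stood highest for miR-30d-5p (377 normalized counts, ratio 0.557), day 20 replicate 3 lowest for miR-23b-3p (3244, ratio 0.579), and day 20 replicate 1 highest for miR-127-3p (771, ratio 0.637) and miR-382-5p (453, ratio 0.595). The last pair of miRNAs belongs to the DLK1-DIO3 region, so that sample is counted for both. In the early group, day 14 replicate 4 stood highest for miR-708-5p (188, ratio 0.531) and day 14 replicate 1 lowest for miR-24-3p (475, ratio 0.581). The median of the probes without a cattle gene was highest in day 23 replicate 4 (88.8 normalized counts, ratio 0.583) among late samples. With the sample in question left out, the log2 difference of miR-30d-5p was 0.57, that of miR-127-3p -0.57, of miR-382-5p -0.35, of miR-708-5p -0.43, of miR-23b-3p 0.52 and of miR-24-3p -0.00051.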

How the results depend on the processing

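No probe passed the adjusted threshold in 36 of the 37 alternatives, leaving out each of the 16 samples included; without day 20 there was 1 call, miR-432-5p. Between alternatives the number of probes at an unadjusted p under 0.05 ran from 2 to 43, against 36: 7 without the run term, 34 with run 1 alone, 20 with run 2 alone, 23 with background subtracted, 20 of 103 with a mean of at least 200, and 19 (without day 23 replicate 2) to 42 (without day 17 replicate 3) on leaving out a sample. The fit with replicate number as a replicate block gave 0 calls and 36 such probes, and changed no call. The tests of days within periods and of period by run gave 0 calls with median centring as well. The log2 difference in total ran from 0.14 to 0.25 with a sample left out and was 0.14 (exact p = 0.236) without the 2 most abundant probes; that of the no-gene median ran from -0.070 to 0.11 and that of the same-name median from -0.012 to 0.049.

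None of the 30 leading probes turned direction under any alternative that gave a value, which their choice by p favours. Of all 61 named probes 45 never did. With array weights, the sign was turned for miR-125a-5p -0.022 and miR-193a-3p -0.011. With background subtracted, turned values were miR-382-5p 0.50. With equal totals, the sign was turned for miR-125a-5p -0.14, miR-99a-5p -0.14, miR-25-3p -0.059, miR-30b-5p -0.11, miR-30c-5p -0.078, miR-181b-5p/miR-181d-5p -0.059, miR-24-3p -0.11 and miR-193a-3p -0.0609. With median centring, turned values were miR-199a-3p/miR-199b-3p 0.018. With quantile normalization, the sign was turned for miR-125a-5p -0.081. In run 1 alone, turned values were let-7i-5p 0.090, miR-199a-3p/miR-199b-3p 0.20, miR-424-5p 0.21 and miR-197-3p -0.076. In run 2 alone, the sign was turned for miR-125a-5p -0.078, miR-99a-5p -0.37, miR-25-3p -0.20, miR-30b-5p -0.15, miR-30c-5p -0.17, miR-23a-3p -0.050 and miR-24-3p -0.018. Scaled to the 100 most abundant probes, turned values were miR-125a-5p -0.016 and miR-99a-5p -0.015. Without day 14, the sign was turned for miR-125a-5p -0.10, miR-99a-5p -0.034, miR-503-5p 0.038, miR-30b-5p -0.025, miR-30c-5p -0.078 and miR-24-3p -0.037. Without day 17, turned values were miR-199a-3p/miR-199b-3p 0.041. Without day 20, the sign was turned for miR-99a-5p -0.084. Without day 23, turned values were miR-199a-3p/miR-199b-3p 0.20, miR-21-5p 0.057, miR-382-5p 0.025 and miR-197-3p -0.22. With 1 sample left out, miR-199a-3p/miR-199b-3p ran from -0.15 to 0.13, miR-125a-5p ran from -0.052 to 0.15, miR-99a-5p ran from -0.066 to 0.18 and miR-24-3p from -0.00051 to 0.15. Without turning sign, miR-197-3p had 0.084 without day 23 replicate 4, and miR-503-5p -0.087 without day 14 replicate 4. Quantile normalization gives no value for let-7a-5p and let-7b-5p, which held fixed ranks, and background subtraction none for probes at the floor in at least 8 samples. The causes of these turns were not tested. The centring on same-name probes was chosen after seeing the data. Signal near that of probes without a cattle gene limits the weak probes, most of all in run 1.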

Other observations

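The miRNAs in this paragraph were singled out after their values were seen, and none passed the adjusted threshold. Grouped by neighbouring genes in the RefSeq table, the 13 probes of the main DLK1-DIO3 stretch all lay below 0 with the deposited values, from -0.66 to -0.046 on the log2 scale, and so did the 3 probes of the miR-127, miR-432 and miR-433 group, from -0.67 to -0.20, though with background subtracted miR-382-5p of the main stretch had 0.50. All 4 probes of the let-7e, miR-99b and miR-125a cluster lay above 0, from 0.065 to 0.37, though miR-125a-5p had -0.14 with samples scaled to equal totals. let-7e-5p itself had a lowest, median and highest value of 1686, 3872 and 6287 normalized counts early and 2681, 5004 and 8493 late. Neighbours parted elsewhere: miR-221-3p and miR-222-3p, which share a seed and a transcript, had -0.38 (SE 0.21) and 0.37 (SE 0.20), and the smooth muscle pair miR-143-3p and miR-145-5p -0.40 (SE 0.28) and 0.27 (SE 0.18); these gaps were not tested. The epithelial miR-141-3p had 0.39 (SE 0.17), at 37.1 to 56.9 early and 45.7 to 87.3 late. The lowest difference of all probes was that of miR-4516, without a cattle gene of that number, at -0.85 (SE 0.44), with values from 35.7 to 387 early and 12.1 to 154 late.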
